A study of Mus musculus with 4 samples.

Results

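The genes described here are 8 mouse genes of MHC class II antigen presentation: H2-Aa, H2-Ab1, H2-Eb1, Cd74, Ciita, H2-DMa, H2-DMb1 and Cd86. Every probe set whose annotation gives exactly 1 of these symbols was taken, which gave 16 of the 45101 probe sets and 7 of the 18193 genes that could be named. H2-DMb1 had no such probe set, because its 2 probe sets also carry the symbol of the neighbouring H2-DMb2. Where a gene had several probe sets, the one with the highest mean over all arrays represents it. The arrays held RNA of 2 sorted progenitor populations from unstimulated mice of a mixed C57BL6J/129SV background. The groups were Trib1-/- MDP, wild-type MDP, Trib1-/- GMP and wild-type GMP, where GMP are granulocyte monocyte progenitors and the cell type of the MDP arrays is given as macrophage dendritic cell. Each group had 1 array, so 4 arrays in all, and no difference below has a replicate check, a test or a p-value. The age of the mice, the number pooled for an array, the deleted part of Trib1 and the sort gates are not given here.

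MHC class II molecules display peptides from endocytosed proteins to CD4+ T cells. The alpha and beta chains pair in the endoplasmic reticulum with the invariant chain, which is trimmed by lysosomal proteases and then exchanged for a peptide with the help of the DM protein. Transcription of the genes for these chains and for DM depends on the coactivator CIITA. The RFX, CREB and NF-Y proteins recruit it to a conserved promoter module. The pathway is known from dendritic cells, B cells and macrophages.

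The promoter module is shown because it can be read in sequence, whatever the level of these genes on the arrays. Not every window that was found held the ordered pair of short letter motifs searched for below. A missing match does not show that the module is absent. Reference windows from 250 bases before to 50 bases after the transcription start were found in RefSeq (GRCm38.p6) for 4 of the 8 genes. The stretches below run from 120 to 21 bases before the start, on the strand of the gene. Capitals mark ACNGATG, part of the X box bound by RFX, and CCAAT or ATTGG, the Y box bound by NF-Y.
H2-Eb1 promoter, chr17:34305747-34305846, plus strand: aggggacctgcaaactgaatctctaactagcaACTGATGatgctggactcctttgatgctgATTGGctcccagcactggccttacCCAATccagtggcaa
H2-DMb1 promoter, chr17:34153071-34153170, plus strand: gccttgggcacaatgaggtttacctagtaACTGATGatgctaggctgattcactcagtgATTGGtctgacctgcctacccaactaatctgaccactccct
H2-Aa promoter, chr17:34287844-34287943, minus strand: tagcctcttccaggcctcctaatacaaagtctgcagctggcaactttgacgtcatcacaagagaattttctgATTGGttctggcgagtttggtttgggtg

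In H2-Eb1 the first element began 88 bases before the start and ATTGG followed after 22 bases. In H2-DMb1 it began 91 bases before the start and ATTGG followed after 23 bases. H2-Aa had ATTGG 48 bases before the start and no ACNGATG on the strand of the gene, though the opposite strand held one 232 bases before the start, outside the stretch shown. The ordered pair, with 10 to 40 bases between its parts on either strand, was present in 74 of 32851 windows of all genes (0.225%). ACNGATG alone was in 9.85% of windows and CCAAT alone in 37.4%, with both strands searched. Of the 2 windows of H2-DMa neither held the pair. A match is a match of letters only, and these arrays do not measure binding.

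The class II genes read low on all 4 arrays. Their values are log2 values from RMA, the authors' normalisation, and the floor used below is 3.29, the median of all values on the arrays. Of the 64 values of the 16 probe sets, 14 reached the floor, 4 of them on the Trib1-/- MDP array, 4 in wild-type MDP, 3 in Trib1-/- GMP and 3 in wild-type GMP. The highest of the 64 values was 4.36, and no value lay above percentile 68.7 of its array. In number, 5 of 16 probe sets reached the floor on at least 1 array and 2 did so on all arrays, against 56.9% and 43.1% of all 34945 probe sets with 1 symbol. By gene, H2-Aa, Cd74, Ciita and H2-DMa reached the floor, 4 of the 7, as did 64.1% of all genes. H2-Ab1, H2-Eb1 and Cd86 did not, through the probe sets that represent them. Reaching the floor was not a call of detection, and probes differ in how they bind, so no order of level among these genes is given.

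**Figure D1:**
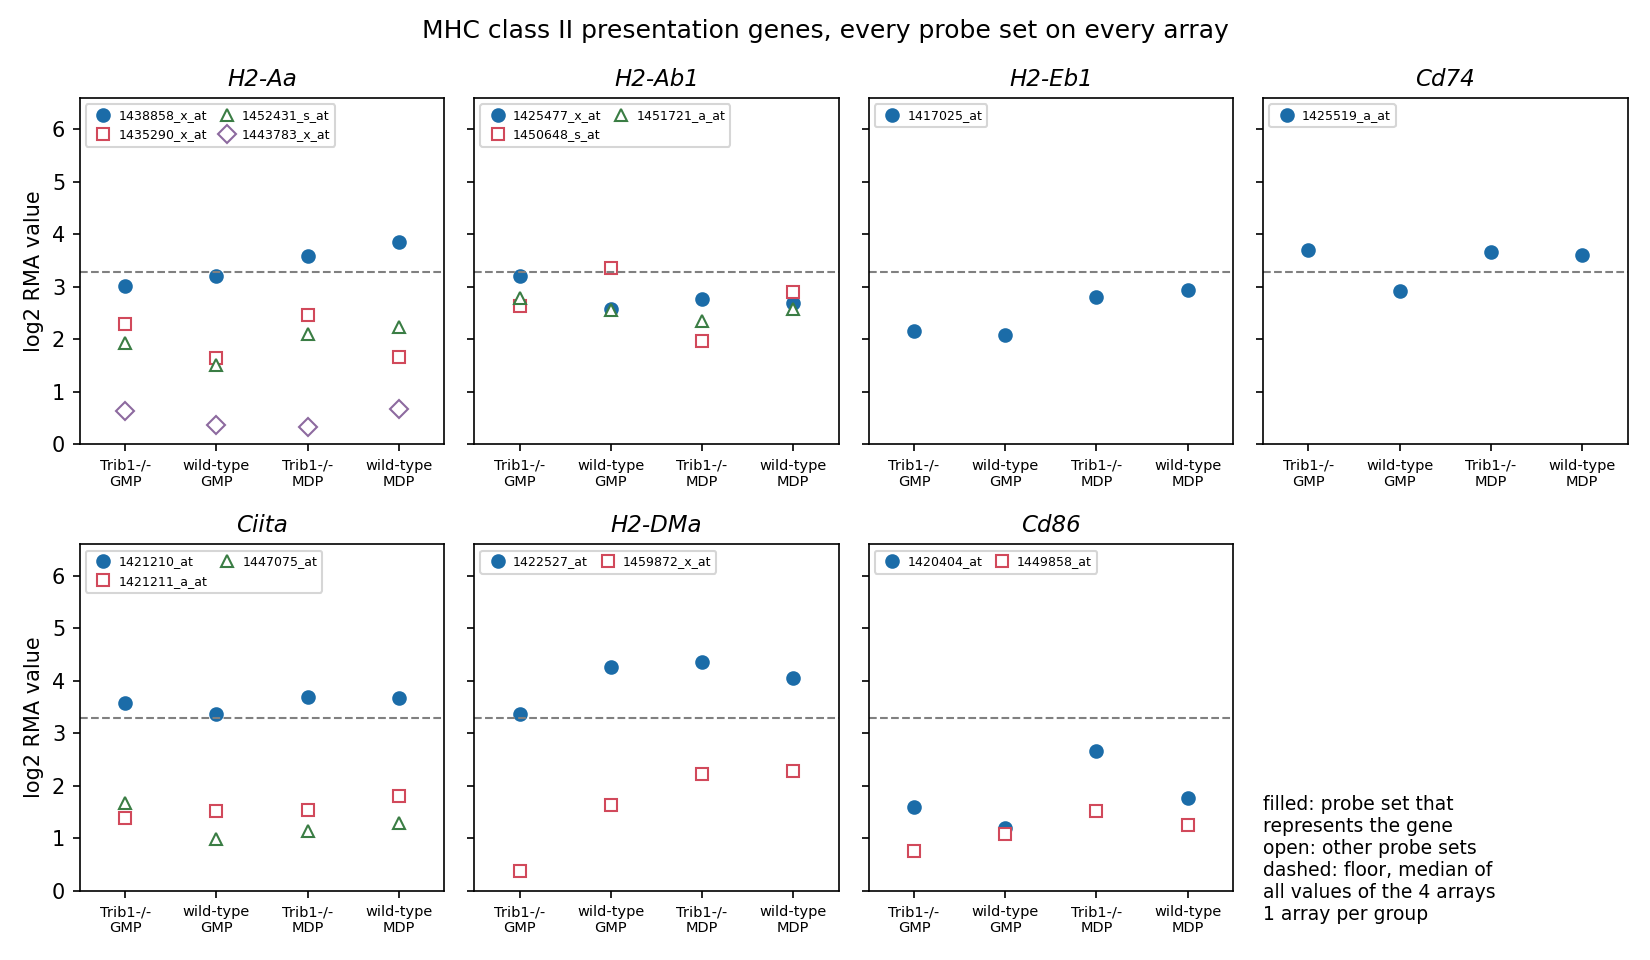
Values of the 16 probe sets of 7 class II presentation genes (log2 RMA, vertical axis) on the 4 arrays (horizontal axis, 1 array per group). Filled points are the probe sets that represent the genes, open points the others, and the dashed line is the floor of 3.29; 11 of the 16 probe sets lie below it on every array.

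A few facts of the whole series bear on these values. RMA makes the arrays alike, and their medians lay between 3.27 and 3.31. Over all probe sets the Trib1-/- GMP array correlated with Trib1-/- MDP and wild-type MDP at 0.967 and 0.964 (Pearson r), and the wild-type GMP array with the same arrays at 0.950 and 0.948, the lowest values of any pair. Each comparison with wild-type GMP rests on that array, and comparisons that share an array are not independent. All 5 monocyte genes at the floor were higher in MDP than in GMP in both genotypes, and 0 of 7 GMP genes were. Cx3cr1, of the monocyte list, was higher by only 0.30 in Trib1-/- and 0.34 in wild type. Kit, of the GMP list, read 2.69 in Trib1-/- MDP and 2.43 in wild-type MDP, below the floor. It read 5.39 in Trib1-/- GMP and 6.01 in wild-type GMP. These genes do not settle which cells the MDP arrays held. The monocyte lineage receptor gene Csf1r read 7.81 in Trib1-/- MDP and 7.82 in wild-type MDP, against 6.01 in Trib1-/- GMP and 5.997 in wild-type GMP. The elastase gene Elane read 3.499 in Trib1-/- MDP and 4.24 in wild-type MDP, against 9.03 in Trib1-/- GMP and 9.57 in wild-type GMP. Trib1 itself did not check the genotype labels. Its 2 probe sets read 4.71 and 5.56 in Trib1-/- MDP against 5.13 and 5.99 in wild-type MDP, and 5.19 and 5.10 in Trib1-/- GMP against 4.85 and 4.95 in wild-type GMP. Every direction by genotype below therefore rests on the labels. In sorted bulk RNA, fewer cells with a transcript and less of it per cell cannot be told apart.

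The classical class II chains come first. H2-Aa encodes the alpha chain of I-A, and its representing probe set (1438858_x_at) read 3.59 in Trib1-/- MDP, 3.85 in wild-type MDP, 3.02 in Trib1-/- GMP and 3.21 in wild-type GMP. Both MDP arrays were thus above both GMP arrays, which lay below the floor, while the genotypes differed by -0.27 in MDP and -0.18 in GMP (Trib1-/- minus wild type). The MDP minus GMP difference was 0.56 in Trib1-/- and 0.65 in wild type, or 0.30 and 0.57 with the GMP values raised to the floor. The other 3 probe sets of H2-Aa stayed below the floor on all arrays and did not agree among themselves. One, 1452431_s_at, kept the order of MDP over GMP, with 2.09 in Trib1-/- MDP and 2.24 in wild-type MDP against 1.94 in Trib1-/- GMP and 1.51 in wild-type GMP. Another, 1435290_x_at, followed genotype more than cell type, at 2.47 in Trib1-/- MDP and 2.29 in Trib1-/- GMP against 1.66 in wild-type MDP and 1.64 in wild-type GMP. The suffix of these names marks probes that can bind several transcripts.

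H2-Ab1 encodes the beta chain of I-A. Its representing probe set (1425477_x_at) read 2.78 in Trib1-/- MDP, 2.70 in wild-type MDP, 3.21 in Trib1-/- GMP and 2.58 in wild-type GMP, below the floor throughout. The second probe set (1450648_s_at) read 1.97 in Trib1-/- MDP, 2.91 in wild-type MDP, 2.64 in Trib1-/- GMP and 3.36 in wild-type GMP, where alone it reached the floor. The third (1451721_a_at) read 2.36 in Trib1-/- MDP, 2.59 in wild-type MDP, 2.79 in Trib1-/- GMP and 2.56 in wild-type GMP. In Trib1-/- all 3 probe sets were lower in MDP than in GMP, with differences of -0.44, -0.67 and -0.43. The first put Trib1-/- GMP above wild-type GMP by 0.64, and the second put it below. The probe sets of this gene therefore gave no common direction for genotype in GMP.

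H2-Eb1, the beta chain gene of I-E, has a single probe set (1417025_at). It read 2.80 in Trib1-/- MDP, 2.94 in wild-type MDP, 2.16 in Trib1-/- GMP and 2.09 in wild-type GMP. As for H2-Aa, both MDP arrays lay above both GMP arrays, by 0.64 in Trib1-/- and 0.86 in wild type, but here all 4 values were below the floor. C57BL/6 mice do not make the partner alpha chain, H2-Ea, and that gene was also below the floor on every array, with its highest value, 3.07, in Trib1-/- MDP.

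Cd74 encodes the invariant chain, the chaperone that fills the class II groove until peptide loading. Its single probe set (1425519_a_at) read 3.66 in Trib1-/- MDP, 3.61 in wild-type MDP, 3.71 in Trib1-/- GMP and 2.92 in wild-type GMP. The wild-type GMP array alone was low and below the floor. So Trib1-/- GMP exceeded wild-type GMP by 0.79, or by 0.42 with the low value raised to the floor, and the genotypes differed by 0.05 in MDP. The MDP minus GMP difference was -0.04 in Trib1-/- and 0.70 in wild type, the last 0.33 with the low value raised.

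Ciita encodes the coactivator on which class II transcription depends. The representing probe set (1421210_at) read 3.68 in Trib1-/- MDP, 3.67 in wild-type MDP, 3.57 in Trib1-/- GMP and 3.35 in wild-type GMP, so all 4 arrays lay close together. Its largest difference in any comparison was 0.31, MDP minus GMP in wild type. Its other 2 probe sets read between 0.98 and 1.80, all below the floor.

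H2-DMa encodes the alpha chain of the DM protein, which exchanges the invariant chain fragment for peptide. Its representing probe set (1422527_at) was at the floor or above on all arrays, with 4.36 in Trib1-/- MDP, 4.05 in wild-type MDP, 3.36 in Trib1-/- GMP and 4.25 in wild-type GMP. The Trib1-/- GMP array alone was low. The genotype difference, Trib1-/- minus wild type, was -0.89 in GMP and 0.30 in MDP. The MDP minus GMP difference was 1.0 in Trib1-/-, just at the 2-fold mark, and -0.20 in wild type. The second probe set (1459872_x_at) was below the floor on all arrays and again lowest in Trib1-/- GMP, at 0.36 against 1.63 in wild-type GMP, with 2.22 in Trib1-/- MDP and 2.28 in wild-type MDP. For MDP against GMP in wild type, the 2 probe sets went opposite ways (-0.20 and 0.65).

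Cd86 encodes a costimulatory ligand of CD28 that activated dendritic cells and B cells carry. Its representing probe set (1420404_at) read 2.66 in Trib1-/- MDP, 1.76 in wild-type MDP, 1.58 in Trib1-/- GMP and 1.20 in wild-type GMP, below the floor on all arrays. The highest value was that of Trib1-/- MDP, above wild-type MDP by 0.91 and above Trib1-/- GMP by 1.08. The second probe set had the same order of MDP over GMP, with 1.51 in Trib1-/- MDP and 1.25 in wild-type MDP against 0.76 in Trib1-/- GMP and 1.08 in wild-type GMP. With values raised to the floor every difference of Cd86 is 0, so these values say little of its size.

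Differences between genotypes were counted at the 2-fold mark, a log2 difference of at least 1. In GMP, 0 of the 4 genes at the floor passed that mark upward in Trib1-/- and 0 downward, where 0.481% of 11653 genes were higher and 3.16% lower. Their median difference was 0.01, beside -0.06 for all genes, with Cd74 (0.79) and H2-DMa (-0.89) at its ends. With the probe sets of a gene averaged, 2 of the class II genes reached the floor and 1, H2-DMa at -1.08, was counted as lower. In MDP, 0 were higher and 0 lower, where 1.1% of all genes were higher and 1.53% lower, and the median was 0.03 beside 0.01. With shares this small in all genes, counts of 0 among 4 genes are near the background and are no result about these genes. The spread that these arrays can show is that between probe sets of 1 gene, with an SD over 4922 genes of 0.383 between genotypes in MDP and 0.372 in GMP. Variation from mouse to mouse or sort to sort is not in it. Of the 4 genes at the floor, Cd74 and H2-DMa differed between the GMP genotypes by more than this SD, in opposite directions, and none did between the MDP genotypes.

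**Figure D2:**
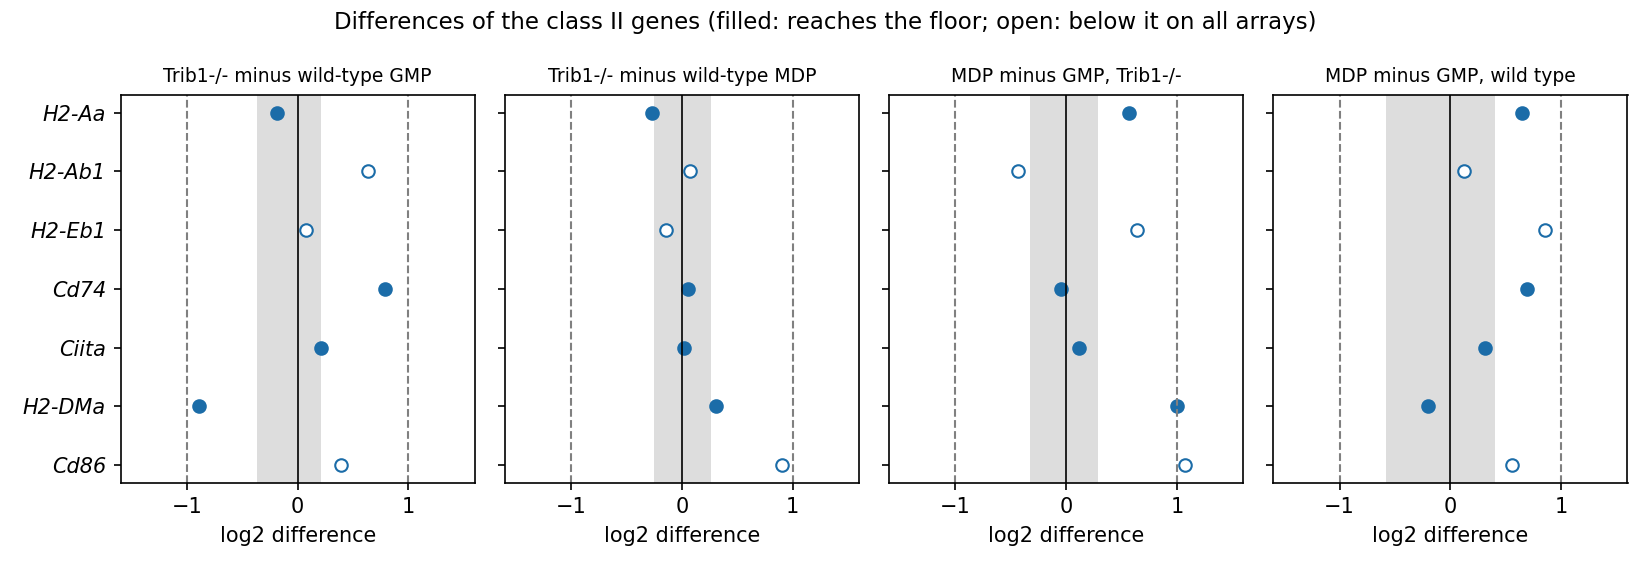
Log2 differences of the 7 class II presentation genes in the 4 comparisons, 1 point per gene; filled points reach the floor on at least 1 array and open points do not. Dashed lines mark 2-fold and grey bands the middle 50% of 11653 genes; only H2-DMa and Cd86, both for MDP minus GMP in Trib1-/-, reach a dashed line.

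Between the progenitors most differences of the representing probe sets were above 0, that is higher in MDP. The exceptions were H2-Ab1 (-0.44) and Cd74 (-0.04) in Trib1-/- and H2-DMa (-0.20) in wild type. In Trib1-/- 3 of the 4 genes at the floor were above 0, beside 48.4% of all genes, and 1 was at least 2-fold higher, H2-DMa, where 2.75% of all genes were, and 0 were 2-fold lower, where 4.08% were. The median was 0.34, beside -0.01 for all genes. In wild type 3 of 4 were above 0, beside 47.2% of all genes, with 0 at least 2-fold higher where 4.16% of all genes were, and 0 at least 2-fold lower where 12.4% were. The median was 0.48, beside -0.04. Over all 16 probe sets, floor or not, 10 were above 0 in Trib1-/- and 14 in wild type. The share of all probe sets above 0 was not computed, so these counts are no result about the class II genes. The differences of the 16 probe sets ran from -0.67 to 1.85 in Trib1-/- and from -0.45 to 0.86 in wild type. The SD between probe sets of 1 gene was 0.422 for the Trib1-/- comparison and 0.543 for wild type. Each median of the 4 genes was smaller than the SD of its comparison. That SD is of single probe sets and not of a median of genes, so nothing is drawn from this. Counts among 4 genes are no result about these genes.

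Other steps of the class II pathway were read from a list of 14 genes, of which 12 had a probe set and 8 reached the floor. Among these 8, the number at least 2-fold higher in MDP than in GMP was 2 in Trib1-/- and 4 in wild type, and the number 2-fold lower was 0 in Trib1-/- and 1 in wild type. Over all genes 2.75% and 4.16% were 2-fold higher in these comparisons and 4.08% and 12.4% lower. These counts moved with the setting: the 2 higher were 4 with no floor and 1 with 32 added to the linear values, the 4 higher were 1 with 32 added, and the 1 lower was 0 with the arrays centred. Ctss encodes cathepsin S, which trims the invariant chain, and read 7.93 in Trib1-/- MDP and 8.40 in wild-type MDP, against 5.15 in Trib1-/- GMP and 5.95 in wild-type GMP. The difference was 2.78 in Trib1-/- and 2.44 in wild type. Ifi30 encodes the lysosomal thiol reductase that opens disulphide bonds of antigens, and it was higher in MDP by 1.35 in Trib1-/- and 1.02 in wild type. Ctsl, the cathepsin L gene, was higher by 0.72 and 1.25, but a second probe set read -1.62 and -0.82, and their mean gave -0.45 and 0.21.

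H2-DMb2 encodes a beta chain of DM and lies next to H2-DMb1. It read 4.70 in Trib1-/- MDP and 5.48 in wild-type MDP, against 4.05 in Trib1-/- GMP and 3.24 in wild-type GMP. Both MDP arrays were above both GMP arrays, with differences of 0.65 in Trib1-/- and 2.24 in wild type. The other probe sets of H2-DMb2 gave smaller differences in wild type, 0.68 and 0.29, with a mean over its probe sets of 1.07, and since the genes are near-identical copies the signal may be shared. Ap1s1, a clathrin adaptor subunit gene, was lower in MDP, with differences of -0.93 in Trib1-/- and -1.11 in wild type. H2-Ob, a chain of the DM inhibitor DO, barely reached the floor, and its partner H2-Oa did not. Marchf1 encodes a ubiquitin ligase that removes class II from the surface. It read 2.78 in Trib1-/- MDP and 3.28 in wild-type MDP, against 1.24 in Trib1-/- GMP and 1.14 in wild-type GMP, all below the floor. Between genotypes none of the 8 was 2-fold apart in either progenitor. The largest differences were 0.81 for H2-DMb2 and -0.80 for Ctss in GMP, and -0.77 for H2-DMb2 in MDP. In GMP the other probe sets of H2-DMb2 read -0.56 and -0.32, so its direction there is not settled.

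Of 12 genes that control class II transcription, 11 were measured and all 11 reached the floor on all arrays. Irf8, a transcription factor of monocytes and dendritic cells, was the 1 gene at least 2-fold higher in MDP in each genotype. Of all genes, 2.75% were in Trib1-/- and 4.16% in wild type. Irf8 read 7.77 in Trib1-/- MDP and 7.81 in wild-type MDP, against 4.81 in Trib1-/- GMP and 5.51 in wild-type GMP. The promoter-binding genes were less than 2-fold apart between MDP and GMP. Rfx5, the DNA-binding RFX subunit, differed by -0.28 in Trib1-/- and -0.58 in wild type. Nfya, an NF-Y subunit, differed by 0.97 and 0.21, and Creb1 by -0.05 and -0.47 in the same comparisons. Between genotypes, Rfxank, another RFX subunit, was 1.03 higher in Trib1-/- GMP than in wild-type GMP, the 1 gene of the list at least 2-fold apart. Of all genes, 0.481% were at least 2-fold higher in that comparison and 3.16% lower. The other 2 probe sets of Rfxank read -0.06 and 0.18 there, and the mean over its probe sets gave 0.39, under 2-fold. The list's median in GMP was -0.13, and in MDP it was -0.04 with no gene 2-fold apart.

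A costimulation list of 9 genes beside Cd86 had 7 at the floor. Besides costimulatory ligands it held the receptor gene Cd40 and the inhibitory ligand genes Cd274 and Pdcd1lg2. In MDP against GMP, 2 were at least 2-fold higher in Trib1-/- and 3 in wild type (2.75% and 4.16% of all genes), and none was 2-fold lower (4.08% and 12.4%). With 32 added to the linear values, 0 were 2-fold higher in either genotype. Cd83, a marker of dendritic cell maturation, read 5.18 in Trib1-/- MDP and 5.59 in wild-type MDP, against 3.24 in Trib1-/- GMP and 3.03 in wild-type GMP. Both GMP values lay below the floor, and with them raised to it the differences were 1.89 in Trib1-/- and 2.31 in wild type. Icosl, the ligand of ICOS, read 5.47 in Trib1-/- MDP and 4.71 in wild-type MDP, against 3.43 in Trib1-/- GMP and 3.63 in wild-type GMP. Its second probe set gave smaller differences, 0.30 and 0.70. Tnfsf9, the ligand of 4-1BB, was 1.30 higher in wild-type MDP than in wild-type GMP, or 0.19 with values raised to the floor. Cd80, the closest relative of Cd86, read between 3.11 and 3.67 on all arrays, and none of the 7 was 2-fold apart between genotypes in either progenitor.

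**Figure D3:**
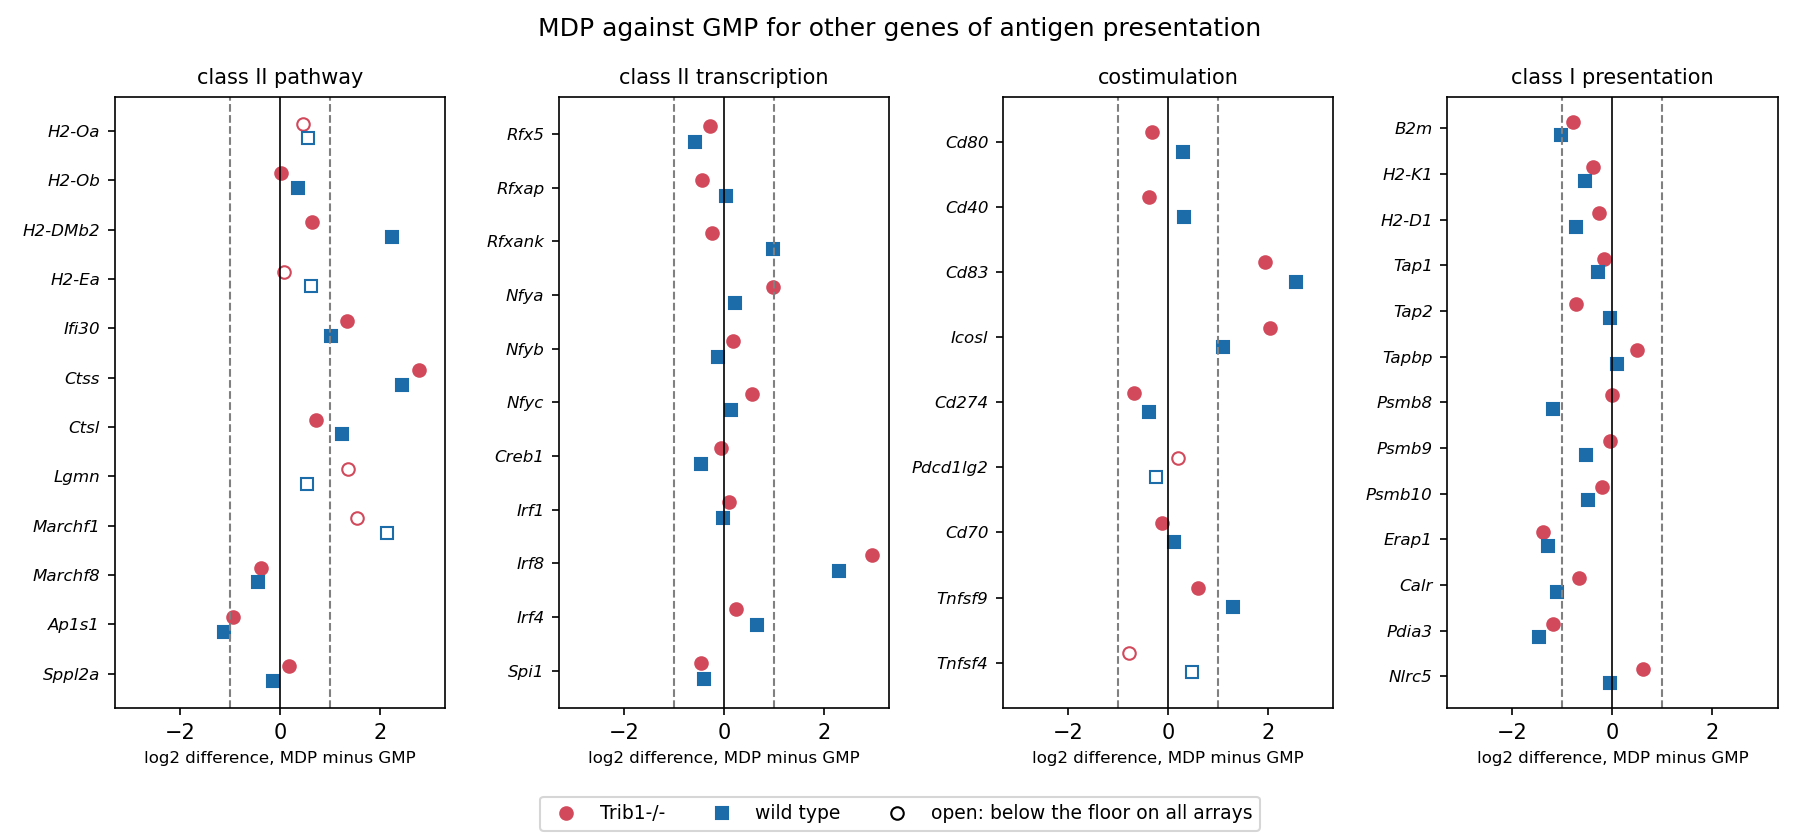
Log2 differences, MDP minus GMP, for genes of 4 lists (class II pathway, class II transcription, costimulation, class I presentation), with circles for Trib1-/- and squares for wild type; dashed lines mark 2-fold and open symbols are genes below the floor on all arrays. Ctss, Irf8 and Cd83 stand at 1.93 or more in both genotypes, and Pdia3 and Erap1 at -1.18 or less.

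Class I presentation displays cytosolic peptides and is used by nearly all cells. All 13 genes were measured and reached the floor, and in MDP against GMP 2 were at least 2-fold lower in Trib1-/- and 5 in wild type (4.08% and 12.4% of all genes), with none 2-fold higher. The count in wild type was 3 with cyclic loess, with the arrays centred or with 32 added, and 2 with probe sets averaged or without shared probe sets. The count in Trib1-/- was 0 with probe sets averaged and 1 with 32 added. B2m, the light chain of class I, read 9.17 in Trib1-/- MDP and 9.55 in wild-type MDP, against 9.97 in Trib1-/- GMP and 10.58 in wild-type GMP. Its second probe set had the same order of arrays. The ER chaperone genes Pdia3 and Calr were lower in MDP. Pdia3 differed by -1.18 in Trib1-/- and -1.46 in wild type, and Calr by -0.66 and -1.10. The second probe set of Pdia3 read -0.10 and 0.11, and the mean of both gave -0.64 and -0.67, so its 2-fold differences rest on 1 probe set. Erap1, which trims peptides, differed by -1.39 in Trib1-/- and -1.28 in wild type. Both its MDP values lay below the floor, and with them raised to it the differences were -1.02 and -1.10. A second probe set of Erap1, below the floor on all arrays, read -0.27 and -0.24. Between the GMP genotypes the median of the list was -0.39, beside -0.06 for all genes. Of the 13 genes, 2 were above 0, beside 44.6% of all genes, and 1 was at least 2-fold lower, beside 3.16%. That gene was Psmb8, an immunoproteasome subunit, at 5.63 in Trib1-/- GMP against 6.85 in wild-type GMP. With its weak second probe set averaged in, the difference was -0.65, and the count was 0 then, without shared probe sets and with 32 added. In MDP the genotypes had a median of -0.14 with no gene 2-fold apart.

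Markers of cells that carry class II, and of other cells such as T cells, were read beside these values. Of 11 macrophage genes, 8 reached the floor. Their log2 level summed over all 11 was 33.4 in Trib1-/- MDP and 50.8 in wild-type MDP, against 31.3 in Trib1-/- GMP and 33.5 in wild-type GMP. Of the 8, 6 were at least 2-fold lower in Trib1-/- than in wild-type MDP, where 1.53% of all genes were. The 7 class II genes summed to 23.5 in Trib1-/- MDP and 22.6 in wild-type MDP. The largest difference among them was that of Cd86 (0.91), below the floor. The others went both ways, among them H2-DMa (0.30) and H2-Aa (-0.27). The part of the macrophage genes in the class II values was not tested. Of 10 B cell genes, 9 had a probe set and 6 reached the floor. Their sum was 31.6 in Trib1-/- MDP and 33.9 in wild-type MDP, against 30.6 in Trib1-/- GMP and 31.4 in wild-type GMP. Of 11 dendritic cell genes, 10 had a probe set and 7 reached the floor, with a sum of 43.4 in Trib1-/- MDP and 42.8 in wild-type MDP, against 37.1 and 37.8 in Trib1-/- and wild-type GMP. Among them Flt3, the receptor that drives dendritic cell development, was higher in MDP by 2.84 in Trib1-/- and 1.90 in wild type, or by 2.22 and 1.57 with its GMP values raised to the floor. Cd24a went the other way (-0.90 and -1.17), Batf3 read -0.01 and 0.68 and Sirpa -0.07 and 0.30, while Xcr1 and Cd209a, of differentiated dendritic cells, were below the floor on all arrays. The sums of monocyte, plasmacytoid dendritic cell and T cell genes were likewise higher in both MDP arrays. For monocyte genes the sum was 28.5 in Trib1-/- MDP and 28.2 in wild-type MDP, against 23.1 in Trib1-/- GMP and 23.6 in wild-type GMP. For plasmacytoid genes it was 27.3 and 28.3, against 24.9 and 24.5, and for T cell genes 13.9 and 13.9, against 12.9 and 11.9, in the same order. The part of any of these cells in the class II values was not tested.

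The mean profile of H2-Aa, H2-Ab1, H2-Eb1 and Cd74 over the 4 arrays, each gene centred on its own mean, spanned 0.58. Among 323 genes that reached the floor and spanned at least 2, the profiles nearest to it were those of Rps25 (root mean square difference 0.56), H2-DMb2 (0.61), 6330407A03Rik (0.63), Pkib (0.68), 4921508D12Rik (0.68), Axl (0.68), Icosl (0.69) and Hmox1 (0.69). A gene that spans at least 2 cannot lie close to a profile that spans 0.58, so these are only the nearest under that rule, over 4 arrays, and no likeness is drawn from them.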

How the data were processed

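Total RNA was extracted with Trizol and amplified and biotin-labelled with the NuGEN Ovation system, per the labels' protocols. The authors processed the Affymetrix arrays with RMA, per the submitters' processing notes; the sources used here give neither its version nor a genome build. The deposited values are taken as log2 from their range (0.14 to 14.5), since the file states no scale. They are uncentred values of single arrays.

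Probe sets were named from the platform annotation: 34945 had 1 symbol, 932 several and 9160 none, and 64 controls were left out. A gene was used where its highest value reached the floor (3.29). Differences were counted at 2-fold; with 1 array per group no test was made. Named were all class II genes and, of 4 pathway lists, the genes 2-fold apart and the largest others. These genes and lists were chosen with earlier results of these data known. The number of arrays limits the precision. Tried besides were dropping the floor, raising it to the 75th percentile, probe set means, no shared probe sets by suffix, cyclic loess (limma 3.58.1, 3 iterations), centring, raising to the floor, adding 32, and size rules of 1.5-fold and 4-fold. Counting was checked on simulated data (Python 3.11.15, pandas 2.3.3).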

Additional observations from a re-analysis of the deposited data

Results flagged for a closer look

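H2-DMa differed between genotypes in opposite directions in the progenitors: by 0.30 in MDP and by -0.89 in GMP, a difference of 1.20 between them. It was picked out because its only array in each group moved the opposite way, and the difference was not tested. The same holds, with at least 1 between the differences, for 1086 of 11653 genes (9.32%). Its second probe set, below the floor, gave -0.06 in MDP and -1.27 in GMP. The sign was the same in both, so that probe set did not repeat the opposite directions. The Trib1-/- GMP array holds the lowest value of both probe sets.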

How the results depend on the processing

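Over 8 settings, that of the report included, the median difference of the class II genes ran from 0.08 to 0.69 for MDP minus GMP in Trib1-/-, from 0.06 to 0.61 in wild type, from 0.01 to 0.16 between the MDP genotypes, and from -0.34 to 0.21 between the GMP genotypes, where its sign was not fixed. The count at least 2-fold higher in Trib1-/- MDP than in Trib1-/- GMP, 1 in the report, was 2 of 7 with no floor, 0 with 32 added to the linear values and 0 at 4-fold. With probe sets averaged, 1 of the 2 genes left at the floor, H2-DMa, was at least 2-fold lower in Trib1-/- GMP. At 1.5-fold, 1 gene was higher and 1 lower in Trib1-/- than in wild-type GMP, and 2 were higher in wild-type MDP than in wild-type GMP. No class II gene reached the 75th percentile, 4.78, so that floor gave no value. Of 96 differences of single class II genes under the alternatives, 4 shrank by more than the probe set SD, all with 32 added, and 1 grew; of 448 for 15 pathway genes 34 shrank. No difference of at least 2-fold changed sign among them, but 12 smaller ones did: H2-DMb2 between the GMP genotypes went to -0.56 without shared probe sets and Ctsl for MDP minus GMP in Trib1-/- to -0.45 with probe sets averaged, as did H2-DMa in wild type (0.23). The causes were not tested. Low signal limits every value here: 50 of 64 class II values lie below the floor. No paired analysis was possible because each group has 1 array.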

Other observations

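One further reading concerns H2-DMb1. Its 2 probe sets name H2-DMb2 as well and can belong to either gene. One of them read 4.08 in Trib1-/- MDP and 3.28 in wild-type MDP, against 4.16 in Trib1-/- GMP and 3.89 in wild-type GMP. The other read 2.02 in Trib1-/- MDP and 1.65 in wild-type MDP, against 1.34 in Trib1-/- GMP and 1.98 in wild-type GMP, below the floor throughout. Neither was 2-fold apart in any comparison. Of the 3 probe sets that name H2-DMb2 alone, 1 was 2.24 higher in wild-type MDP than in wild-type GMP and the others 0.68 and 0.29.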
